A study of Mus musculus with 16 samples.

Results

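The chaperones of the endoplasmic reticulum (ER) and the genes of the unfolded protein response were measured in the hippocampus of male mice aged 2 months that lacked APP, APLP2 or both. The group held 31 genes, chosen by name, and every probe set that the platform annotation assigns to 1 of these symbols alone was a member: 74 probe sets, out of 34945 with a single symbol for 18193 genes in the series. Of the 74, 60 probe sets of 30 genes were bright enough to be tested, among 11664 genes tested in all. Only Trib3, a regulator of Atf4 signalling, had no tested probe set.

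The 16 Affymetrix arrays fell into 4 groups of 4. N-dCKO hippocampus carried the genotype label APP-/-; APLP2-/-, and the series title calls the double knockout neuronal and conditional. APLP2KO hippocampus was APLP2-/-, APPKO hippocampus was APP-/-, and WT hippocampus was wild type, all on a strain labelled C56/BL6. The promoter that drives the deletion in N-dCKO mice, the cells in which it acts and the way the single knockouts were made are not given in the sources used here. Replicates are numbered 1 to 4 in each group. Nothing in the labels ties a replicate to its own animal, and the p-values therefore reflect the variation among these arrays, part of which may be technical.

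Proteins of the secretory pathway, including the membrane glycoproteins APP and APLP2, are translocated into the ER, where HSP70 and HSP90 chaperones, lectin chaperones and disulfide isomerases fold them. Proteins that do not fold are returned to the cytosol and degraded. When unfolded proteins accumulate, the sensors encoded by Ern1 (IRE1), Eif2ak3 (PERK) and Atf6 act through Xbp1, Atf4 and the cleaved Atf6 protein, and the transcription of chaperone and degradation genes increases. Neurons depend on this system for the large amounts of receptors, channels and secreted proteins that they make.

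The response acts on promoters through the ER stress response element, a CCAAT box and a CCACG box with 9 bases of any kind between them, on which NF-Y and Atf6 bind, and through its variant, element II (ATTGG, 1 base of any kind, CCACG). Promoters in the RefSeq table of the GRCm38.p6 build were searched over the 250 bases before the start of transcription, on both strands. Of the 31 genes, 27 had an entry. The first element was found in 9 of these 27 genes (Hspa5, Hsp90b1, Dnajc3, Calr, Canx, Pdia6, Creld2, Syvn1 and Derl3), against 35 of all 27025 genes in the table, or 0.13%. Element II was found in 1 of the 27, Herpud1, against 10 of all genes, or 0.037%, and the letters of the 2 elements do not overlap in any promoter shown. The unfolded protein response element (TGACG followed at once by TGG) and the amino acid response element (TGATG, 1 base of any kind, AAT) were in 0 of the 27, and in 0.603% and 0.91% of all genes. The promoters of 5 genes are shown 5′ to 3′ on the strand of the gene because these genes differ in how their signals compare across the genotypes, as described further on. The boxes of the element are in capitals. They lie at chr2:34771840-34772089 on the + strand for Hspa5, chr12:17266339-17266588 on the + strand for Pdia6, chr15:88819396-88819645 on the + strand for Creld2, chr8:94386179-94386428 on the + strand for Herpud1 and chr11:50325674-50325923 on the - strand for Canx.
Hspa5: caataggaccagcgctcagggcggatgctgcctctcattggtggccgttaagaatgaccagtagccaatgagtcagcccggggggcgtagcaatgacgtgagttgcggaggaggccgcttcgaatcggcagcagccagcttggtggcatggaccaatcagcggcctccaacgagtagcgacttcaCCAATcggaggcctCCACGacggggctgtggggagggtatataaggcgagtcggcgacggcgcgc
Pdia6: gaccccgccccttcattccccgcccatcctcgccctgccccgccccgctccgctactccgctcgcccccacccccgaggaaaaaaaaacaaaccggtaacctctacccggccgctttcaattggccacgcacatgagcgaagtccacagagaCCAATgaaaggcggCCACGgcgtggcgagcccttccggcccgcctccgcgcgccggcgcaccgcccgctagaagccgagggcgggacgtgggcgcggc
Creld2: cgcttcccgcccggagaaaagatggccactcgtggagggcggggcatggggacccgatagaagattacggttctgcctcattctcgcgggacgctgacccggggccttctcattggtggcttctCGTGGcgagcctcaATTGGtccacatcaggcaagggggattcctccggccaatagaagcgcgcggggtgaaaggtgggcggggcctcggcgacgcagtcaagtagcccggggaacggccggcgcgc
Herpud1: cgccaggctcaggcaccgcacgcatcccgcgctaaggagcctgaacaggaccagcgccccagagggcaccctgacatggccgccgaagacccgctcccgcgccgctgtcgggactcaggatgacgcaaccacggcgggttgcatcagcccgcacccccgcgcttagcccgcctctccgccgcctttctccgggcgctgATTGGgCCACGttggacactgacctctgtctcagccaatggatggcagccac
Canx: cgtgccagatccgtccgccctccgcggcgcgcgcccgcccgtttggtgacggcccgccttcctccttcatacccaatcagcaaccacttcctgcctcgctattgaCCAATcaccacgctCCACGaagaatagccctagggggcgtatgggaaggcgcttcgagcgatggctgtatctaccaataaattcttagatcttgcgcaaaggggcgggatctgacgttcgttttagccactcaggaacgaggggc

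The element ends 47 bases before the start of Hspa5, 80 before that of Pdia6 and 127 before that of Canx. In Creld2 it lies on the opposite strand, 126 to 108 bases before the start. A match is a description of these letters and does not show that a factor binds there.

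The arrays matched their labels. App had signals of 1959 to 2381 in N-dCKO, 17715 to 21078 in APLP2KO and 2344 to 2724 in APPKO, against 17314 to 19940.4 in WT hippocampus. Aplp2 had signals of 860.4 to 1132 in N-dCKO, 847 to 1501 in APLP2KO and 5406 to 6026 in APPKO, against 5725 to 6186 in WT hippocampus. Median signals per array lay between 79.7 and 102, and the authors' scaling gave every array the same 2% trimmed mean. The 12 genes of the hippocampal neuron list averaged 11.93 to 12.09 on the log2 scale on every array, so the labelled tissue was present throughout. Markers of other cells differed between groups. The summed signal of 14 choroid plexus genes ran from 806.8 to 37420 in N-dCKO, 31260 to 39560 in APLP2KO and 34120 to 42450 in APPKO, against 32950 to 37540 in WT hippocampus, and Ttr made up most of it in APLP2KO, APPKO and WT and on N-dCKO array 3. The mean log2 signal over the 14 genes, which weights them equally, was 8.10 on N-dCKO array 3 and 5.34 to 5.95 on the other 3 N-dCKO arrays, 8.15 to 8.69 in APLP2KO and 7.97 to 9.15 in APPKO, against 8.41 to 9.43 in WT hippocampus. Ttr, the transthyretin of choroid plexus, had signals of 109.8 to 34285 in N-dCKO, 26839 to 35056 in APLP2KO and 29119 to 37234 in APPKO, against 26344 to 33519 in WT hippocampus. The summed signal of 14 microglial genes was 12710 to 13740 in N-dCKO, 14230 to 15200 in APLP2KO and 14270 to 16010 in APPKO, against 16480 to 17200 in WT hippocampus, and C1qa ran from 986 to 1238 in N-dCKO, 1278 to 1477 in APLP2KO and 1383 to 1569 in APPKO, against 1514 to 1637 in WT hippocampus. Myelin genes averaged 11.1 to 11.58 on the log2 scale in N-dCKO, 11.74 to 11.86 in APLP2KO and 11.13 to 11.94 in APPKO, against 11.75 to 12.1 in WT hippocampus. In bulk tissue, fewer cells of a type and less RNA per cell cannot be told apart.

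Most of the ER chaperone and unfolded protein response genes had lower mean signals than WT in both groups without APLP2, by small amounts. Hspa5 was the only gene of the group called changed at an adjusted p below 0.05, and it fell by 0.32 ± 0.07 on the log2 scale (SE) with the loss of APLP2 (adjusted p = 0.0404 in limma over all 11664 genes). This comparison averages N-dCKO minus APPKO and APLP2KO minus WT, so it sets 8 arrays without APLP2 against 8 with it. The double knockout is titled neuronal and conditional, and how the single knockouts were made is not given. N-dCKO minus APPKO may therefore hold other differences between the mice, which cannot be told apart from the loss of APLP2. The background was 107 of 11664 genes called, or 0.917%. A further 13 genes were lower at an unadjusted p below 0.05, which makes 14 of 30 with Hspa5, where 6.06% of all genes were lower by that rule. Hyou1 was the 1 gene higher by it, where 4.45% of all genes were. The median log2 difference of the 30 genes was -0.09, against -0.004 for all genes tested.

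Against WT, 0 of the 30 genes were called in N-dCKO, APLP2KO or APPKO hippocampus (limma, adjusted p below 0.05), where 0.943% of all genes were called in N-dCKO, 0.129% in APLP2KO and 0.00857% in APPKO. In N-dCKO, 9 were lower at an unadjusted p below 0.05 and 0 were higher, where 6.87% of all genes were lower and 5.11% higher. In APLP2KO, 10 were lower and 0 higher, where 4.39% of all genes were lower and 3.05% higher. In APPKO, 1 gene, Pdia4, was lower and 0 were higher, where 3.16% were lower and 2.01% higher. The log2 fold change was below 0 for 24 genes in N-dCKO (51.3% of all genes), 25 in APLP2KO (53.3% of all genes) and 26 in APPKO (51.7% of all genes). These signs depend on the probe set used. Of 17 genes with several tested probe sets, 5 in N-dCKO, 4 in APLP2KO and 11 in APPKO had another of opposite sign. Median log2 differences of the 30 genes were -0.11 in N-dCKO, -0.15 in APLP2KO and -0.06 in APPKO. Those of all genes tested were within 0.01 of 0 in each comparison. These 3 comparisons share the WT arrays. Adjusted p-values of the 30 genes were 0.0702 or more in N-dCKO, 0.222 or more in APLP2KO and 0.92 or more in APPKO.

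**Figure D1:**
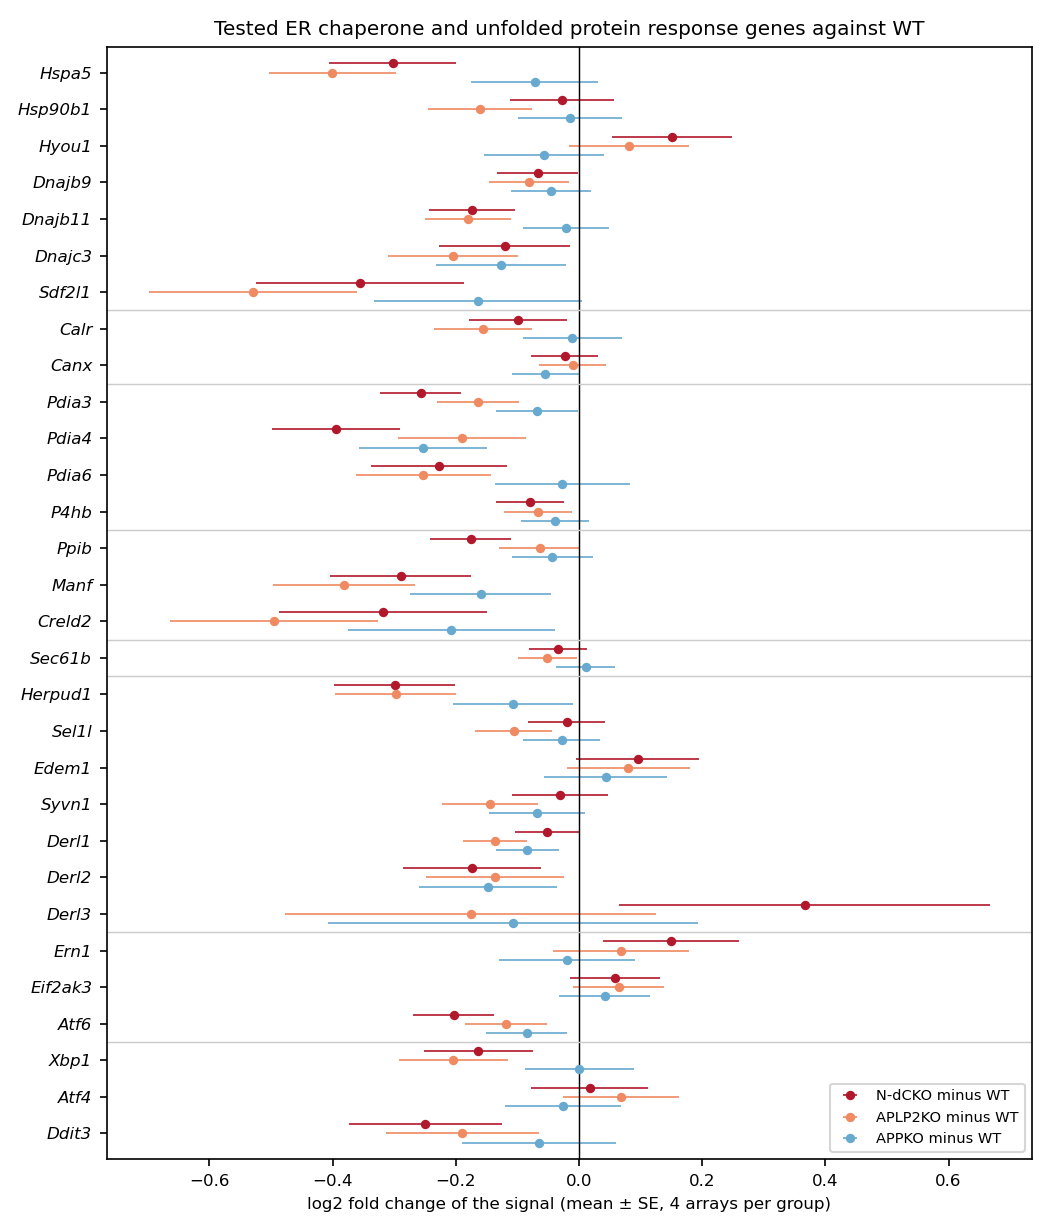
Log2 fold changes of the 30 tested genes against WT, with the gene on the vertical axis and the fold change of the signal on the horizontal axis, as mean ± SE with 4 arrays per group. Grey lines separate the roles, from chaperones and co-chaperones at the top to transcription factors at the bottom. Points of N-dCKO and APLP2KO lie left of 0 for 24 genes, among them Hspa5, Sdf2l1, Manf and Creld2, and those of APPKO mostly lie nearer to 0.

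Hspa5 encodes BiP, the HSP70 chaperone of the ER lumen that also holds the sensors inactive. It had signals of 6949, 6431, 8914 and 9145 in N-dCKO, 6791, 6842, 8340.4 and 7162 in APLP2KO and 9683, 9923, 7912 and 9104 in APPKO, against 9479.9, 10690.2, 9595 and 8679 in WT hippocampus. All 4 APLP2KO arrays lay below all 4 WT arrays. N-dCKO arrays 1 and 2 lay below every WT array and arrays 3 and 4 within the WT range, while the APPKO arrays overlapped WT. Its log2 fold change against WT was -0.30 ± 0.10 in N-dCKO (unadjusted p = 0.00829), -0.40 ± 0.10 in APLP2KO (0.000951) and -0.07 ± 0.10 in APPKO (0.496). The mean over the 8 arrays without APLP2 was 7572 ± 1060.1 and that over the 8 with it was 9383 ± 835 (SD). The call of Hspa5 held in 5 of 16 fits without 1 array each (N-dCKO 3 or 4, APLP2KO 3, APPKO 3 or WT 4) and was lost in the other 11, with adjusted p-values up to 0.105 (without WT 2). It was lost with the replicate number as a block (adjusted p = 0.0509), and with the mean over its probe sets, where the log2 difference was -0.21 (adjusted p = 0.101). Its 3 probe sets differed in size: with each probe set tested alone, the log2 difference with loss of APLP2 was -0.32 for the one used (adjusted p = 0.0503), -0.27 for the second (0.289) and -0.04 for the third (0.89).

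Among the co-chaperones, Sdf2l1 and Dnajb11 followed the same order of groups. Sdf2l1, which works in a complex with Dnajb11 and BiP, had signals of 369.8, 335, 523 and 704 in N-dCKO, 371, 394, 449 and 426 in APLP2KO and 549, 578, 472 and 524 in APPKO, against 593, 725, 598 and 484 in WT hippocampus. The 4 APLP2KO arrays lay below every WT and every APPKO array, while N-dCKO ranged from well below WT on arrays 1 and 2 to the upper end of WT on array 4. Its log2 fold change was -0.36 ± 0.17 in N-dCKO, -0.53 ± 0.17 in APLP2KO and -0.16 ± 0.17 in APPKO against WT, and -0.36 with the loss of APLP2 (unadjusted p = 0.00695, adjusted p = 0.222). Dnajb11, the J-protein that hands unfolded chains to BiP, had signals of 1036, 933, 1058 and 1042 in N-dCKO, 985, 1019, 979 and 1066 in APLP2KO and 1020.1, 1219, 1159.9 and 1132 in APPKO, against 1165, 1205, 1188 and 1039.6 in WT hippocampus. WT array 4 stood among the arrays without APLP2, and the other 3 WT arrays lay above them. The log2 difference of Dnajb11 with the loss of APLP2 was -0.17 ± 0.05 (adjusted p = 0.145).

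Dnajc3 (p58IPK), another J-protein of the lumen, had a log2 difference of -0.10 with the loss of APLP2, and its 5 tested probe sets ran from -0.17 to -0.10. Dnajb9 (ERdj4), at -0.05, and Hsp90b1 (GRP94), at -0.09, did not pass an unadjusted p of 0.05. Hsp90b1 was 5567 to 7212 in N-dCKO, 5576 to 5717 in APLP2KO and 5474 to 7239.7 in APPKO, against 5768 to 7055 in WT hippocampus. Its 4 APLP2KO arrays lay below all WT arrays while N-dCKO overlapped WT, and its log2 fold changes against WT were -0.03 in N-dCKO and -0.16 in APLP2KO.

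Hyou1, the nucleotide exchange factor of BiP, went the other way from BiP. Its higher-signal probe set, the one used for the gene, had signals of 982 to 1170.5 in N-dCKO, 927 to 1195 in APLP2KO and 788 to 1059 in APPKO, against 855 to 1077 in WT hippocampus, and the log2 difference with the loss of APLP2 was 0.14 ± 0.07 (unadjusted p = 0.0498, adjusted p = 0.474). The lower-signal probe set had signals of 268, 341, 437 and 369 in N-dCKO, 322, 385, 371 and 378 in APLP2KO and 251, 223, 228 and 240.2 in APPKO, against 256, 216, 239.5 and 207 in WT hippocampus. All 8 arrays without APLP2 lay above all 8 arrays with it. With every probe set tested alone, it rose by 0.60 ± 0.09 on the log2 scale with the loss of APLP2 (adjusted p = 0.00118), by 0.59 in N-dCKO (0.0335) and by 0.65 in APLP2KO (0.0368) against WT. This probe set was the 1 of the 60 called higher in each of these comparisons, where 0.279% of all probe sets tested were called higher for the loss of APLP2, 0.145% in N-dCKO and 0.0649% in APLP2KO. The pair of probe sets disagree in size, and the mean over them gave a log2 difference of 0.37 (adjusted p = 0.00568). Hyou1 lies on chromosome 9, as do Aplp2, Manf and Ppib. Whether the groups differ in sequence under the probes could not be checked, so the signal of this probe set may not measure the RNA level alone.

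**Figure D2:**
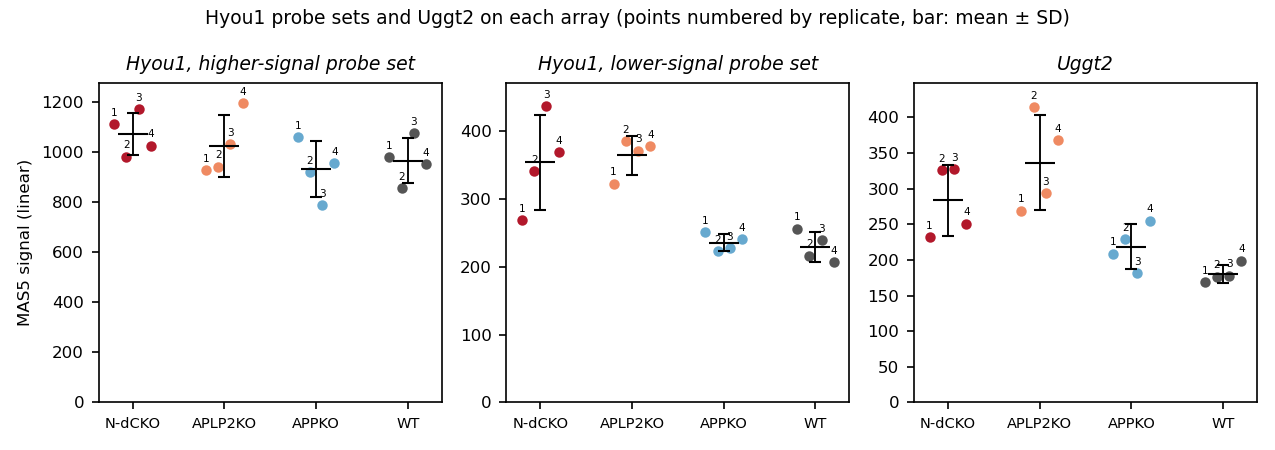
MAS5 signal (linear, vertical axis) of both tested Hyou1 probe sets and of Uggt2 on each array, by genotype, with points numbered by replicate and bars for the mean ± SD of 4 arrays. The lower-signal Hyou1 probe set separates the groups without APLP2 from those with it, and the higher-signal one overlaps in every group.

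Of the lectin chaperones, which hold glycoproteins during folding, Calr had signals of 8294 to 10018 in N-dCKO, 8362 to 10222 in APLP2KO and 9229 to 10850.2 in APPKO, against 9082 to 11500.3 in WT hippocampus and a log2 difference of -0.12 ± 0.06 with the loss of APLP2 (unadjusted p = 0.0428, adjusted p = 0.454). Canx was at 0.01 ± 0.04, with signals of 8352 to 9181 in N-dCKO, 8353 to 9772 in APLP2KO and 8554 to 8652 in APPKO, against 8364 to 9507 in WT hippocampus that overlapped in all groups. Of the 3 Canx probe sets tested, 1 was lower at -0.17 (unadjusted p = 0.00796, adjusted p = 0.273) and the other 2 were at 0.01 and 0.02. Canx shares the ER stress response element with Hspa5, Pdia6 and Creld2.

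All 4 disulfide isomerases had log2 fold changes below 0 in every knockout group. Pdia3, which acts on glycoproteins held by calnexin and calreticulin, had signals of 4094, 3978, 4105 and 4968 in N-dCKO, 4671, 4390.4, 4913 and 4271 in APLP2KO and 4576, 4984, 4947 and 4975 in APPKO, against 5019, 5476, 5073 and 4865 in WT hippocampus. N-dCKO array 4 stood within the WT range and the other 3 N-dCKO arrays lay below every WT array. Its log2 fold change was -0.26 ± 0.07 in N-dCKO (adjusted p = 0.0702), -0.16 ± 0.07 in APLP2KO (0.564) and -0.07 ± 0.07 in APPKO (1), and -0.18 ± 0.05 with the loss of APLP2 (0.0909). A dimmer Pdia3 probe set, tested alone in limma, was at -0.05 in N-dCKO against WT (unadjusted p = 0.584). With the loss of APLP2 that probe set was also at -0.05 (unadjusted p = 0.469). Pdia4, an isomerase with an added thioredoxin-like domain, had signals of 535, 489, 585 and 635 in N-dCKO, 691, 649.6, 674 and 572 in APLP2KO and 557, 608, 547 and 779.7 in APPKO, against 714, 745, 746 and 744 in WT hippocampus. All N-dCKO and all APLP2KO arrays lay below all WT arrays, and 3 of 4 APPKO arrays did. Log2 fold changes of Pdia4 were -0.40 ± 0.10 in N-dCKO (adjusted p = 0.076), -0.19 ± 0.10 in APLP2KO (0.741) and -0.25 ± 0.10 in APPKO (0.92). It was the gene of the group with the smallest unadjusted p for the loss of APP, averaged over both backgrounds, at -0.23 (unadjusted p = 0.0054).

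Pdia6, an isomerase that also attenuates the sensors, had signals of 1643, 1551, 2086 and 2307 in N-dCKO, 1792, 1874, 1895 and 1797 in APLP2KO and 2043, 2462, 2115 and 2016 in APPKO, against 2133, 2561, 2301 and 1839 in WT hippocampus. The APLP2KO arrays were close together and below every APPKO array, while WT array 4 fell among them. The log2 difference with the loss of APLP2 was -0.23 ± 0.08 (unadjusted p = 0.00871, adjusted p = 0.242). P4hb, the classical protein disulfide isomerase, was at -0.05 ± 0.04. Its signals of 2525 to 2809 in N-dCKO, 2534 to 2790.2 in APLP2KO and 2621 to 2833 in APPKO, against 2628 to 2999.9 in WT hippocampus overlapped.

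Manf and Creld2, soluble ER proteins that are secreted under ER stress, were lower without APLP2 at an unadjusted p below 0.05. Manf had signals of 1915, 1928, 2531 and 3071 in N-dCKO, 2183, 2049, 2253 and 2201 in APLP2KO and 2265, 2854, 2377 and 2677 in APPKO, against 2623, 3152, 2878 and 2696 in WT hippocampus. The APLP2KO arrays lay below all WT and all APPKO arrays. N-dCKO arrays 1 to 3 lay below WT and array 4 in its upper part. Its log2 fold change was -0.29 ± 0.11 in N-dCKO, -0.38 ± 0.11 in APLP2KO and -0.16 ± 0.11 in APPKO, and -0.26 ± 0.08 with the loss of APLP2 (adjusted p = 0.198). Creld2 had signals of 309, 382, 442 and 553 in N-dCKO, 309.8, 381, 369 and 401 in APLP2KO and 311, 564, 436 and 517 in APPKO, against 470.0, 602, 523 and 480.2 in WT hippocampus. All APLP2KO arrays lay below all WT arrays, and APPKO array 1 was at the level of the lowest of them. The log2 difference of Creld2 with the loss of APLP2 was -0.30 ± 0.12 (adjusted p = 0.345). Ppib (cyclophilin B), a prolyl isomerase, had a log2 fold change of -0.18 ± 0.07 in N-dCKO against WT (unadjusted p = 0.0151, adjusted p = 0.266) and -0.06 ± 0.07 in APLP2KO. Sec61b, a subunit of the translocon, was at -0.05 ± 0.03 with the loss of APLP2.

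**Figure D3:**
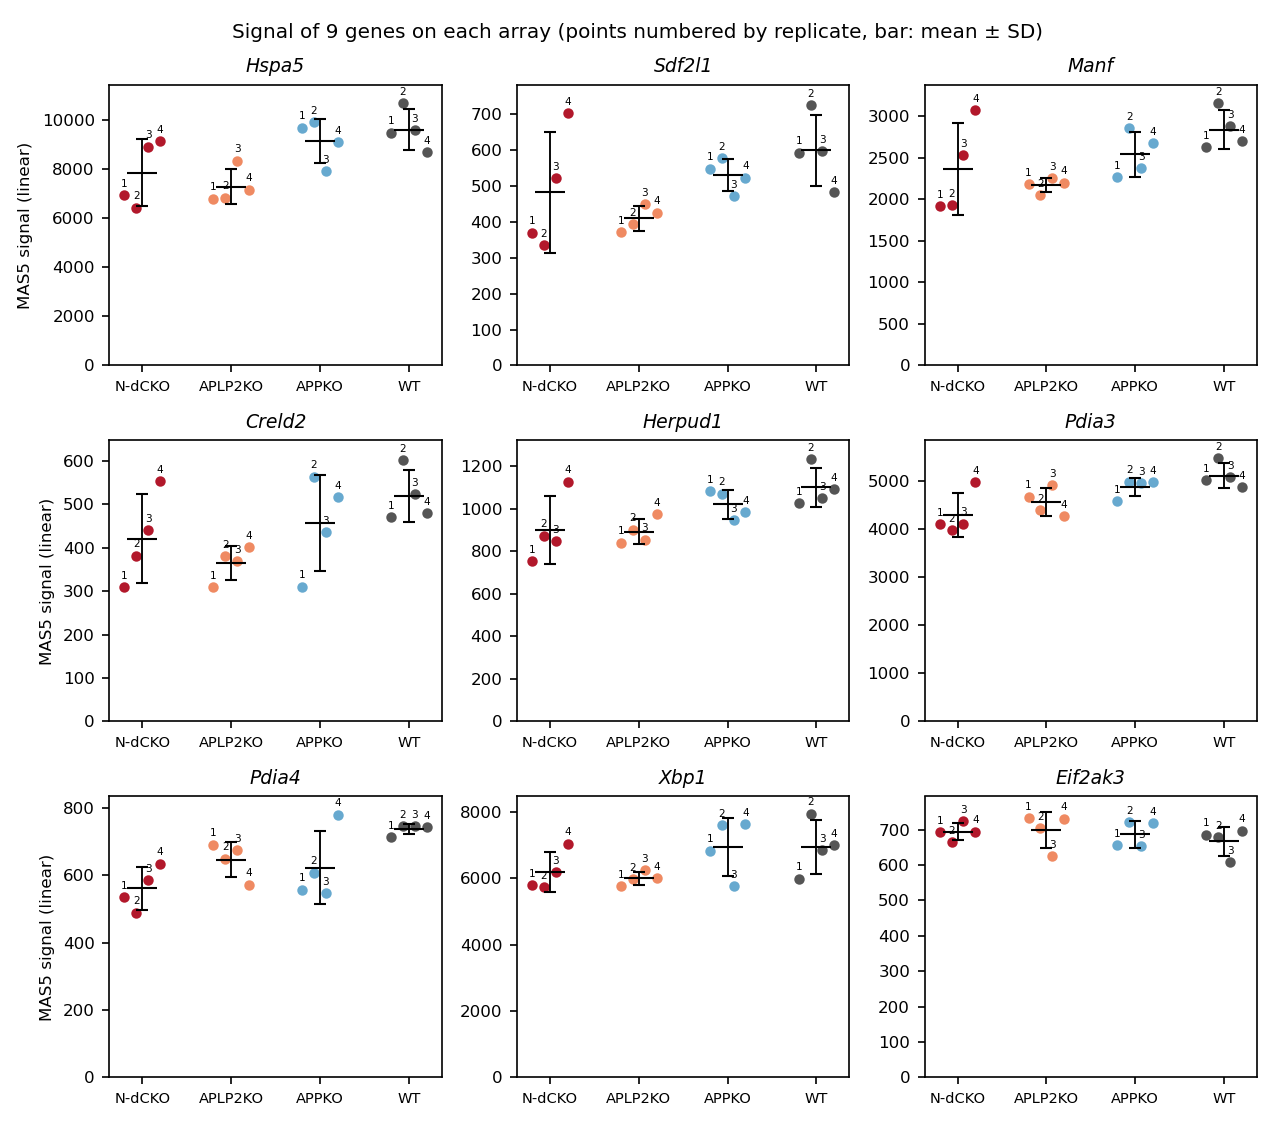
MAS5 signal (linear, vertical axis from 0) of 9 genes on each of the 16 arrays, by genotype, with points numbered by replicate and bars for the mean ± SD of 4 arrays. In Hspa5, Sdf2l1, Manf, Creld2 and Herpud1 the 4 APLP2KO points lie below the 4 WT points and N-dCKO point 4 lies at WT level, and Eif2ak3 overlaps in all groups.

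Among the 7 genes of ER-associated degradation, Herpud1 stood apart. It encodes a membrane protein that brings components to the Syvn1 ubiquitin ligase, and it had signals of 754, 875, 847 and 1128 in N-dCKO, 841, 903, 855 and 975 in APLP2KO and 1083, 1072, 946 and 984 in APPKO, against 1028, 1234, 1050.3 and 1092 in WT hippocampus. The 4 APLP2KO arrays and N-dCKO arrays 1 to 3 lay below every WT array, and N-dCKO array 4 was within the WT range. Its log2 fold change was -0.30 ± 0.10 in N-dCKO (adjusted p = 0.176), -0.30 ± 0.10 in APLP2KO (0.423) and -0.11 ± 0.10 in APPKO (1), and -0.25 ± 0.07 with the loss of APLP2 (0.123). Its 2 probe sets were at -0.25 and -0.18 in that comparison. On the second, APLP2KO signals of 762 to 963 overlapped WT signals of 828 to 954. Its log2 fold changes against WT were -0.22 in N-dCKO, -0.08 in APLP2KO and 0.06 in APPKO.

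The Derlins form part of the channel through which proteins leave the ER. Derl1 had signals of 3826, 3660.4, 3950.0 and 3441 in N-dCKO, 3412, 3497, 3593 and 3514 in APLP2KO and 3751, 3676, 3457 and 3656 in APPKO, against 4043, 3957, 3648 and 3769 in WT hippocampus. The APLP2KO arrays lay below all WT arrays and N-dCKO overlapped WT. The log2 fold change of Derl1 was -0.05 ± 0.05 in N-dCKO, -0.14 ± 0.05 in APLP2KO and -0.08 ± 0.05 in APPKO, and its interaction term was 0.17 ± 0.07 (unadjusted p = 0.0333, adjusted p = 1). Of 4 Derl1 probe sets, 2 were lower with the loss of APLP2 (-0.20 and -0.19, adjusted p = 0.15 and 0.308) and 1 was at 0.07. Derl2 had signals of 527, 598, 570.5 and 704 in N-dCKO, 613, 580.4, 555 and 713 in APLP2KO and 528, 704, 560.5 and 653 in APPKO, against 598, 716, 766 and 630.5 in WT hippocampus. All groups overlapped, with log2 fold changes of -0.17 ± 0.11 in N-dCKO, -0.14 ± 0.11 in APLP2KO and -0.15 ± 0.11 in APPKO. A second Derl2 probe set, tested alone in limma, was at -0.105 in N-dCKO, -0.14 in APLP2KO and 0.11 in APPKO against WT. With the loss of APLP2 it was at -0.17 (unadjusted p = 0.0118, adjusted p = 0.314), and the probe set used was at -0.08. Derl3 was dim, with signals of 93.2 to 167 in N-dCKO, 36.2 to 149 in APLP2KO and 58.7 to 119 in APPKO, against 68.0 to 116 in WT hippocampus, and no direction could be read from it (SE 0.30 against WT). Sel1l, the adaptor of the ligase, was at -0.05 ± 0.04 with the loss of APLP2, Syvn1 at -0.05 ± 0.06 and Edem1, a mannosidase-like protein, at 0.07 ± 0.07.

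Of the sensors, Ern1 and Eif2ak3 had estimates slightly above 0 in both groups without APLP2. Ern1 had signals of 309, 315, 361 and 322 in N-dCKO, 287, 316, 264 and 375 in APLP2KO and 284, 282, 265 and 329 in APPKO, against 288, 306, 308 and 272 in WT hippocampus. The N-dCKO arrays lay just above all WT arrays, the single instance of a gene of the group lying wholly above WT in N-dCKO, where 2.9% of all genes did. The log2 fold change of Ern1 was 0.15 ± 0.11 in N-dCKO (unadjusted p = 0.192). Eif2ak3 had signals of 694, 665, 724 and 695 in N-dCKO, 733, 705, 626 and 731 in APLP2KO and 655, 722, 653 and 717 in APPKO, against 686, 679, 608 and 697 in WT hippocampus. The groups overlapped, and its log2 difference with the loss of APLP2 was 0.04 ± 0.05. Atf6, the sensor that is itself a transcription factor, had signals of 872, 919.6, 905 and 972 in N-dCKO, 894, 1020.1, 924 and 1062 in APLP2KO and 989.6, 995, 987 and 1012 in APPKO, against 1071, 1105, 1079 and 978 in WT hippocampus. All N-dCKO arrays lay below all WT and all APPKO arrays, and APLP2KO overlapped both. Log2 fold changes of Atf6 were -0.20 ± 0.07 in N-dCKO (adjusted p = 0.174), -0.12 ± 0.07 in APLP2KO (0.741) and -0.09 ± 0.07 in APPKO (1). A dimmer tested probe set of Atf6 had mean signals of 283 in N-dCKO, 274 in APLP2KO and 284 in APPKO, against 329 in WT. On that probe set the N-dCKO arrays overlapped both APPKO and WT.

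Xbp1, the transcription factor whose RNA is spliced by Ern1, had signals of 5787, 5739, 6186 and 7046 in N-dCKO, 5773, 5975, 6245 and 6006 in APLP2KO and 6836, 7598, 5765 and 7623 in APPKO, against 5989, 7945, 6853 and 6991 in WT hippocampus. APPKO array 3 and WT array 1 were as low as the arrays without APLP2, and the other arrays with APLP2 lay above all APLP2KO arrays. Its log2 difference with the loss of APLP2 was -0.18 ± 0.06 (adjusted p = 0.239). The other tested probe sets of Xbp1 ran from -0.24 to 0.01. These signals do not separate spliced from unspliced Xbp1. Ddit3 (CHOP), the factor tied to cell death under lasting stress, was at -0.19 ± 0.09 (unadjusted p = 0.047, adjusted p = 0.468), with signals of 376 to 556 in N-dCKO, 423 to 621 in APLP2KO and 477 to 588 in APPKO, against 508 to 611 in WT hippocampus. Atf4, whose protein rises by translation when Eif2ak3 is active, was at 0.06 ± 0.07 on the probe set used and at 0.25 on a dimmer one (unadjusted p = 0.03, adjusted p = 0.441). Both probe sets of Trib3, a target of Atf4 and Ddit3, stayed under the filter (a signal of 88.2) on average, with a range of 2.9 to 89.7 over all arrays.

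Counted by role, the genes lower with the loss of APLP2 at an unadjusted p below 0.05, as 6.06% of all genes were, numbered 3 of 7 HSP70 and HSP90 chaperones and co-chaperones, 1 of 2 lectin chaperones, 3 of 4 disulfide isomerases, all 3 of the other folding and secreted proteins, 1 of 7 degradation genes, 1 of 3 sensors and 2 of 3 tested transcription factors, and Sec61b was not among them. Groups were also compared array by array, on the probe set used for each gene alone. In APLP2KO hippocampus 8 of 30 genes lay wholly below WT (Hspa5, Hsp90b1, Sdf2l1, Pdia4, Manf, Creld2, Herpud1 and Derl1), against 2.69% of all genes. In N-dCKO hippocampus 2 genes did (Pdia4 and Atf6), against 4.46%. Below all APPKO arrays lay 1 gene in N-dCKO (Atf6), against 2.03% of all genes, and 3 in APLP2KO (Sdf2l1, Pdia6 and Manf), against 2.28%. Of the 10 genes with either kind of ER stress response element, 5 were lower by that rule (6.06% of all genes), with a median log2 difference of -0.11. Of the 16 tested genes with a promoter entry and neither element, 7 were lower, with a median of -0.07, and the difference between these sets was not tested.

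The knockout groups were also compared with each other. In N-dCKO minus APPKO, 0 of 30 genes were called by limma (0.352% of all genes), 3 were lower at an unadjusted p below 0.05 (Pdia3 at -0.19, Hspa5 at -0.23 and Dnajb11 at -0.15) and Hyou1 was higher at 0.21, where 4.11% of all genes were lower and 3.6% higher. In N-dCKO minus APLP2KO, 0 were called (0.0257% of all genes) and 0 were lower or higher by that rule, where 4.31% were lower and 4.13% higher. Apart from the dim Derl3 (0.54 ± 0.30), the largest log2 difference of the group was that of Pdia4, at -0.21 ± 0.10. Hspa5 had a mean signal of 7859.8 ± 1370.5 in N-dCKO and 7284 ± 723 in APLP2KO hippocampus (SD, 4 arrays each). In APLP2KO minus APPKO, 0 were called (0.163% of all genes) and 4 were lower (Hspa5 at -0.33, Xbp1 at -0.20, Dnajb11 at -0.16 and Sdf2l1 at -0.37), where 4.06% were lower, and 0 were higher, where 4.07% were. For the loss of APP, averaged over both backgrounds, 0 were called (0.0171% of all genes) and 1 gene, Pdia4, was lower, where 5.29% of all genes were. By that rule 0 were higher, where 3.88% were, and the median of the 30 genes was -0.004. For the interaction, 0 were called (0% of all genes), Derl1 was the 1 gene higher at an unadjusted p below 0.05, where 2.04% were higher, and 0 were lower, where 2.11% were. The interaction estimate was below 0 for 5 of 30 genes, where 47.7% of all genes were, with a median of 0.06 and a median SE of 0.13.

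The level of the ER genes was even across the APLP2KO arrays and uneven across the N-dCKO arrays. Relative to the WT mean of each gene, the median of the 30 genes was -0.16, -0.16, -0.13 and -0.14 on the log2 scale on the 4 APLP2KO arrays, with 23 or 24 genes below the WT mean on each. On the N-dCKO arrays it was -0.17, -0.17, -0.05 and 0.02, with 25, 25, 18 and 14 genes below. On the APPKO arrays it was -0.06, -0.04, -0.15 and -0.02, and on the WT arrays themselves -0.03, 0.08, 0.02 and -0.08. N-dCKO array 4 was thus at WT level. Calls for the loss of APLP2 depended on which arrays entered the fit. The call of Hspa5 was lost without some arrays of every group, as given above. Without N-dCKO array 1 or array 2, which had the lowest levels of the N-dCKO arrays, no gene of the group was called. Hspa5 then had an adjusted p of 0.0998 or 0.0841. Without array 3, which had the highest choroid plexus signal of the N-dCKO arrays, Hspa5 alone was called (adjusted p = 0.018), where 1% of all genes were. Without array 4, which had the highest ER gene level of the N-dCKO arrays, 5 genes were called (Hspa5, Sdf2l1, Pdia3, Manf and Herpud1, adjusted p from 0.0119 to 0.0257), where 0.917% of all genes were. In N-dCKO against WT, 3 were then called (Pdia3, Manf and Herpud1), where 0.985% of all genes were. The level of array 4 comes from the same values that these calls test, so the added calls are not separate support.

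Markers of other cells also differed between the groups. All 12 tested choroid plexus genes and 8 of 13 tested microglial genes were lower with the loss of APLP2 at an unadjusted p below 0.05, and their median log2 differences were -1.46 and -0.20. Against WT, the median log2 fold change of the choroid plexus genes was -2.62 in N-dCKO (12 of 12 lower at an unadjusted p below 0.05), -0.55 in APLP2KO (3 of 12 lower and 11 of 12 below 0) and -0.28 in APPKO (0 of 12 lower and 11 of 12 below 0). That of the ER genes was -0.11 in N-dCKO, -0.15 in APLP2KO and -0.06 in APPKO. Myelin genes had medians of -0.52 in N-dCKO (10 of 11 lower), -0.07 in APLP2KO (1 of 11 lower) and -0.52 in APPKO (9 of 11 lower), and 10 of 11 were lower with the loss of APP, at a median of -0.50. Their part in the results was not tested. With the mean of the choroid plexus genes as a covariate, 8 genes in APLP2KO, 0 in N-dCKO and 2 for the loss of APLP2 were lower at an unadjusted p below 0.05. Hspa5 was then at -0.18 for the loss of APLP2 (adjusted p = 0.732). The share of all genes lower in this fit was not computed. The covariate was 5.34, 5.95 and 5.87 on N-dCKO arrays 1, 2 and 4, against 7.97 or more in the other groups. It therefore largely follows the N-dCKO group, and this fit cannot tell the 2 apart. Microglial signal was lower than in WT in all 3 knockout groups with no overlap of the summed signal, and its part in the result was not tested. The ratio of the 3′ to the 5′ Gapdh probe sets, a sign of RNA quality, was 0.797 to 0.834 in N-dCKO, 0.741 to 0.817 in APLP2KO and 0.745 to 0.806 in APPKO, against 0.752 to 0.786 in WT hippocampus.

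Within groups, 2 of the other 29 ER genes, Sdf2l1 and Dnajc3, varied with Hspa5 from array to array by both measures of correlation used. Each array's deviation from its group mean on the log2 scale was correlated between Hspa5 and each of the other 29 tested genes over the 16 arrays, with 100000 permutations within groups and adjustment over 32 relations (29 genes, the choroid plexus and microglial lists and the Gapdh ratio). The deviation of Sdf2l1 followed that of Hspa5 most closely, with Pearson's r = 0.910 (permutation p = 9e-05, adjusted p = 0.00288) and Spearman's rho = 0.947 (2e-05, adjusted 0.00064). Without the 2 arrays farthest from the median of Hspa5, N-dCKO 2 and 4, r was 0.901. Dnajc3 had r = 0.735 (permutation p = 0.00188, adjusted 0.0301) and rho = 0.750 (0.00233, adjusted 0.0373), with r = 0.726 without those arrays. Pdia6 (r = 0.816, permutation p = 0.0053, adjusted 0.0424) and Xbp1 (r = 0.686, permutation p = 0.00525, adjusted 0.0424) passed by Pearson's r alone; their rho of 0.753 and 0.715 had adjusted p = 0.0931 and 0.0829. Of the 29 genes, 26 had a positive r, with a median of 0.309, and Edem1, Sec61b and Ppib had a negative one. The shares of all genes that would pass these tests or have a positive r were not computed. The correlations are therefore not shown to be particular to ER genes. Eif2ak3 had r = 0.002, the choroid plexus list 0.394, the microglial list -0.598 and the Gapdh ratio -0.001, and none of these 4 passed (adjusted p from 0.293 to 0.996). All arrays share the authors' scaling to 1 trimmed mean. The permutations treat arrays of different groups as independent. Same-numbered APPKO and WT arrays deviated together, so the permutation p-values may be too small.

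**Figure D4:**
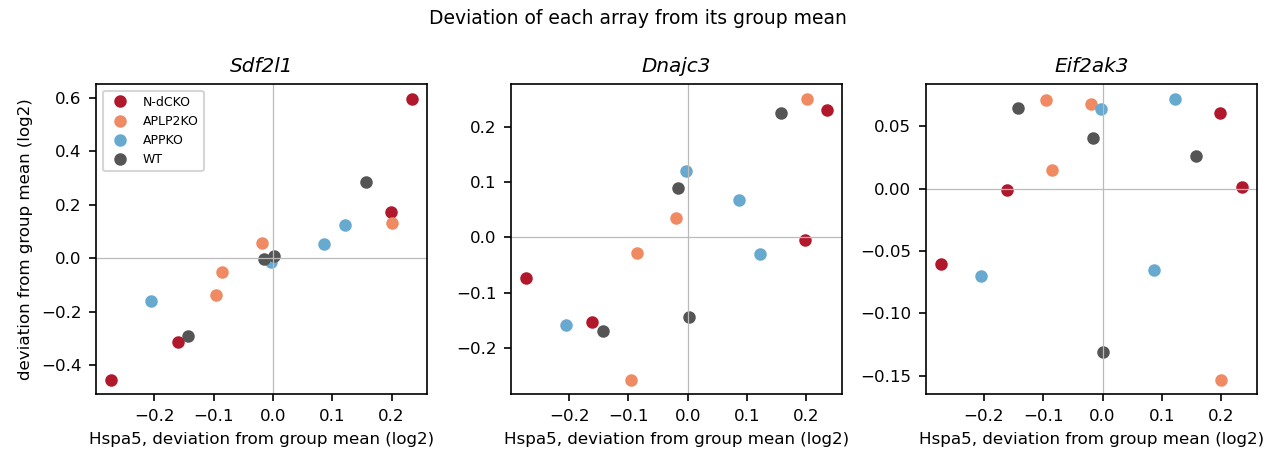
Deviation of each of the 16 arrays from its group mean (log2 scale), Hspa5 on the horizontal axis and Sdf2l1, Dnajc3 or Eif2ak3 on the vertical axis, 1 point per array coloured by genotype. Points follow a line for Sdf2l1 (r = 0.910), scatter more for Dnajc3 (r = 0.735) and show none for Eif2ak3 (r = 0.002).

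A wider list of 114 other ER genes (folding, glycosylation, translocation, degradation, transport and stress) had 102 tested genes. Its median log2 difference with the loss of APLP2 was -0.02. At an unadjusted p below 0.05, 7 genes were lower and 3 higher, where 6.06% of all genes were lower and 4.45% higher. Uggt2 was the 1 gene called, where 0.917% of all genes were. Against WT, 9 were lower and 2 higher in N-dCKO, where 6.87% of all genes were lower and 5.11% higher. In APLP2KO 5 were lower and 4 higher (4.39% and 3.05% of all genes), and in APPKO 4 and 0 (3.16% and 2.01%). Uggt2, an ER glucosyltransferase that marks unfolded glycoproteins for another round with the lectin chaperones, had signals of 232, 325, 327 and 251 in N-dCKO, 269, 414, 294 and 368 in APLP2KO and 209, 229, 181 and 255 in APPKO, against 169, 176, 178 and 199 in WT hippocampus. All arrays of N-dCKO and APLP2KO lay above all WT arrays. It rose by 0.60 ± 0.10 on the log2 scale with the loss of APLP2 (adjusted p = 0.00527) and by 0.85 ± 0.15 in APLP2KO against WT (0.0197), and its fold change in N-dCKO was 0.61 ± 0.15 (0.0535). In the RefSeq table Uggt2 lies on chromosome 14 with 1 entry between it and Dnajc3.

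The genes of the wider list with the smallest p after Uggt2 did not pass the adjustment. In N-dCKO against WT these were Fkbp9 (-0.23, adjusted p = 0.0902), a prolyl isomerase, Nfe2l2 (-0.36, 0.265), the antioxidant response factor NRF2, Dad1 (-0.17, 0.275), an oligosaccharyltransferase subunit, and Sec23b (-0.17, 0.282), a COPII coat protein. In APLP2KO they were Fkbp2 (-0.21, adjusted p = 0.427), Slc7a11 (0.41, 0.517), the cystine transporter and an Atf4 target, Stt3b (-0.10, 0.623), a catalytic subunit of oligosaccharyltransferase, and Clgn (0.25, 0.623), a relative of calnexin. In APPKO they were Bet1 (-0.42, adjusted p = 0.826), a SNARE of ER to Golgi transport, Serp2 (-0.48, 0.903), Fkbp9 (-0.14, 0.931), Sec63 (-0.18, 0.937), a J-protein of the translocon, and Ssr2 (0.11, 0.99), a translocon-associated subunit.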

How the data were processed

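RNA from 16 hippocampus samples was measured on Affymetrix arrays from 6 ug of total RNA each, per the labels' protocols. The authors deposited MAS5 signals, an intensity per probe set on a linear scale, per the submitters' processing notes (no version named). No further scaling was applied. Of 45101 probe sets, 34945 had 1 symbol, 932 several and 9211 none in the annotation table.

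Signals were transformed as log2(signal + 9), so fold changes of dim genes are understated. Probe sets with a mean log2 signal of 6.60 or more were kept (22551), and the probe set with the highest mean stood for each gene. The number of arrays limits the precision. Group means over all 16 arrays were fitted with limma 3.58.1 (variance trend, R 4.3.3; 12 residual and 19.4 moderated degrees of freedom). The 9 comparisons were the 6 pairs of groups, the loss of APLP2 and of APP averaged over both backgrounds, and their interaction. P-values were two-sided and adjusted by Benjamini-Hochberg over all genes tested, with a call below 0.05. Values after ± are SE for log2 differences and SD for signals. The fit was tested on simulated data.

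Same-numbered arrays deviated together between APPKO and WT (r from 0.192 to 0.301 in 4 of 4 pairs), so the numbers may pair APPKO with WT. Between N-dCKO and APLP2KO r was lower, from 0.082 to 0.208 over 4 pairs. If the numbers also pair N-dCKO with APLP2KO, a difference in handling between these pairs cannot be told apart from the loss of APLP2. The members, the lists and the tests were chosen with earlier results of these data known. Named genes were all members by role, with array values for those called, for the 5 with the smallest p in each comparison against WT and for the loss of APLP2, and for the sensors. From the wider list, called genes and the 5 with the smallest p against WT were named. Other marker lists were also measured. Mean log2 signals in N-dCKO, APLP2KO, APPKO and WT were 7.47, 7.77, 7.75 and 8.03 for ependyma, 12.2, 12.2, 12.2 and 12.1 for astrocytes, 9.57, 9.71, 9.63 and 9.65 for endothelium, and 9.35, 9.72, 9.61 and 9.48 for leptomeninges. Alternatives were other pseudocounts, filters and normalizations, other ways to combine probe sets, no variance trend, array weights, a replicate block, only the groups compared, covariates for choroid plexus and Gapdh, and leaving out each array. Figures were drawn with matplotlib 3.10.9.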

Additional observations from a re-analysis of the deposited data

Results flagged for a closer look

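Of 120 sets of 4 arrays (30 genes in 4 groups), 6 held an array far from the other 3 by Dixon's test, where chance gives about 1 in 20. The count is thus at the level that chance gives. Dnajb11 was 933 on N-dCKO array 2, with the other N-dCKO arrays at 1036 to 1058. Pdia3 was 4968 on N-dCKO array 4, with the other N-dCKO arrays at 3978 to 4105. Calr was 10222 on APLP2KO array 3, with the other APLP2KO arrays at 8362 to 8575. Pdia3 was 4576 on APPKO array 1, with the other APPKO arrays at 4947 to 4984. Pdia4 was 714 on WT array 1, with the other WT arrays at 744 to 746. Atf4 was 3465 on WT array 2, with the other WT arrays at 2602 to 2640.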

How the results depend on the processing

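Among genes at an unadjusted p below 0.05 against WT or for the loss of APLP2, the direction held under every alternative with 1 value per gene, except that Ppib in N-dCKO against WT was 0.0035 with the choroid plexus covariate, against -0.18. Single probe sets turned the sign for Derl1 (0.11) and Xbp1 (0.15) in APLP2KO, Hspa5 (0.0086) in N-dCKO and Xbp1 (0.0121) for the loss of APLP2, and for Canx, Sel1l, Edem1 and Derl1, which did not pass there. Counts of calls were less stable, and the causes were not tested. For most of these settings the share of all genes was not computed. The counts below therefore describe the settings and are not results about the genes of the group. For the loss of APLP2, 1 gene was called. The count was 0 with no filter, a filter at the 75th percentile, quantile normalization, no variance trend, the replicate block, or the choroid plexus or Gapdh covariate, 2 with array weights (Hspa5 and Pdia3), 1 with the mean over probe sets (Hyou1, with Hspa5 lost), and 0 to 5 without 1 array, 5 without N-dCKO replicate 4. Genes lower at an unadjusted p below 0.05 there numbered 14, 2 with the choroid plexus covariate and 9 to 14 without 1 array, 9 without N-dCKO replicate 1. In N-dCKO against WT, 0 were called, 1 with every probe set alone (Hyou1), 2 with array weights (Pdia4 and Pdia3) and 0 to 3 without 1 array. The 9 lower became 14 with median centring, 0 with the choroid plexus covariate and 6 to 12 without 1 array. In APLP2KO against WT, 0 were called, 1 with every probe set alone (Hyou1), 1 with only the groups compared (Manf), 2 with that and the replicate block (Hspa5 and Manf, a setting chosen after seeing the data) and 0 without any 1 array. The 10 lower became 17 with median centring, 11 with the replicate block and 6 to 13 without 1 array, 6 without WT replicate 2. In APPKO against WT, 0 were called in any setting. The 1 lower became 2 with median centring or with only the groups compared and the block, 0 with array weights and 0 to 1 without 1 array. With the replicate block, N-dCKO minus APPKO had 5 lower, N-dCKO minus APLP2KO had 1 and the loss of APP had 2. Median centring shifted the median of all genes by up to -0.095, and dim probe sets, Derl3 and Trib3 among them, gave no usable direction.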
